A study of Homo sapiens with 12 samples.

Results

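OPM2 is an established line of human multiple myeloma, a cancer of plasma cells. BET inhibition was followed in these cells by setting 6 libraries with BET inhibition against 6 without it. These were all 12 libraries of the series, assigned by their labels and by no measured value. The 6 libraries with BET inhibition came from cells given JQ1 at 250 nM (3 libraries) or 18DS at 250 nM (3 libraries). The 6 without it came from cells given DMSO, the vehicle (3 libraries), or BKM120 at 1 µM (3 libraries). JQ1 occupies the bromodomains of BET proteins, BKM120 (buparlisib) blocks PI3K, a lipid kinase of growth factor signalling, and 18DS is, per the submitters, a single chimeric molecule directed at both. PI3K inhibition, shared by the 18DS and BKM120 libraries, was therefore kept as a second factor in an additive model. All cultures were collected after 2 h, and the labels call the 3 libraries of each treatment biological triplicates. Transcripts were read from their 3' ends by QuantSeq, and the values are read counts per gene.

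The design limits what the comparison covers. No library received JQ1 and BKM120 together, so the difference between 18DS and BKM120 also holds any difference in PI3K inhibition between these compounds, which cannot be told apart from BET inhibition. One cell line, 1 time and 1 dose of each compound were used. In bulk RNA, fewer cells of a kind and less RNA per cell cannot be told apart.

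BET proteins bind acetylated histones at promoters and enhancers, and recruit P-TEFb, the kinase of CDK9 and a cyclin T that releases paused RNA polymerase II into elongation. Much of the cell's P-TEFb is held inactive in a particle of 7SK RNA, HEXIM1, LARP7 and MEPCE, and BET inhibitors are known to release it. In myeloma, MYC is often driven by large enhancers, and loss of MYC RNA with a rise of HEXIM1 RNA is the usual sign that a BET inhibitor has acted.

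The libraries held 5501895 to 7692013 counts, and 13180 of 63152 gene identifiers passed the filter on low counts. On the first principal component, with 29.6% of the variance, scores of the JQ1 and 18DS libraries were -34 to -13 and those of the DMSO and BKM120 libraries 18.3 to 24.8. The library 18DS replicate 2 stood apart from the others on the third component (8.39%, score -28.9 against -11.6 to 13.8). The OPM2 label was borne out by 9 of 9 plasma cell and OPM2 identity genes passing the filter, with a summed level of 5260 to 5971 CPM (counts scaled to a common library size) with BET inhibition and 6130 to 6378 CPM without it. Of 23 matched markers of T and NK, myeloid, epithelial and fibroblast cells only 1 passed the filter. The T and NK markers summed to 0 to 0.920 CPM with BET inhibition and 0 to 1.80 CPM without it, with CD3D and NKG7 at 0 in every library. Myeloid markers summed to 0.343 to 3.15 CPM with BET inhibition and 0.162 to 3.05 CPM without it, while those of epithelial cells and fibroblasts summed to 0.823 to 2.91 CPM with it and 1.08 to 3.49 CPM without it.

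MYC (ENSG00000136997) fell with BET inhibition. Its level was 1.42, 2.46 and 3.66 CPM (lowest, median and highest of 6) with BET inhibition, against 27.2, 39.8 and 56.5 CPM without it. Every library with BET inhibition lay far below every library without it. The log2 difference was -3.96 (95% confidence interval -4.26 to -3.67, edgeR adjusted p = 1.85e-22), a 15.6-fold lower level. The JQ1 libraries averaged 2.54 ± 0.343 CPM, the 18DS libraries 2.51 ± 1.12, the DMSO libraries 29.3 ± 2.61 and the BKM120 libraries 51.3 ± 4.68 (SD, n = 3 each). Both BET-inhibited groups thus ended at about the same level, although the libraries they are set against differed. The log2 difference was -3.53 for JQ1 minus DMSO and -4.32 for 18DS minus BKM120, and the interaction between BET and PI3K inhibition did not pass its test (edgeR adjusted p = 0.533).

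HEXIM1 (ENSG00000186834), the P-TEFb inhibitor, rose. It had 86.6, 106 and 140.1 CPM (lowest, median and highest of 6) with BET inhibition, against 30.3, 30.6 and 33.6 CPM without it. The groups did not overlap, and the 6 libraries without BET inhibition lay within a narrow band. The log2 difference was 1.83 (95% confidence interval 1.66 to 1.99, edgeR adjusted p = 1.55e-17), a 3.54-fold higher level. An antisense transcript, HEXIM2-AS1, overlaps HEXIM1, and the strand setting of the counting is not given in the sources used here.

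Over all genes, 2247 of 13180 (17%) were called at an edgeR adjusted p under 0.05. Of these, 939 rose (7.12% of tested genes) and 1308 fell (9.92%). The median size of the difference among called genes was 0.471 on the log2 scale. At least 2-fold changes were seen in 181 genes that rose and 140 that fell, and at least 4-fold changes in 41 and 14. Rises thus outnumbered falls among the larger differences, and falls outnumbered rises among all called genes. In 774 called genes (34.4%) the 6 and the 6 libraries did not overlap, 351 higher and 423 lower; over all tested genes the share without overlap was 6.10%.

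**Figure D1:**
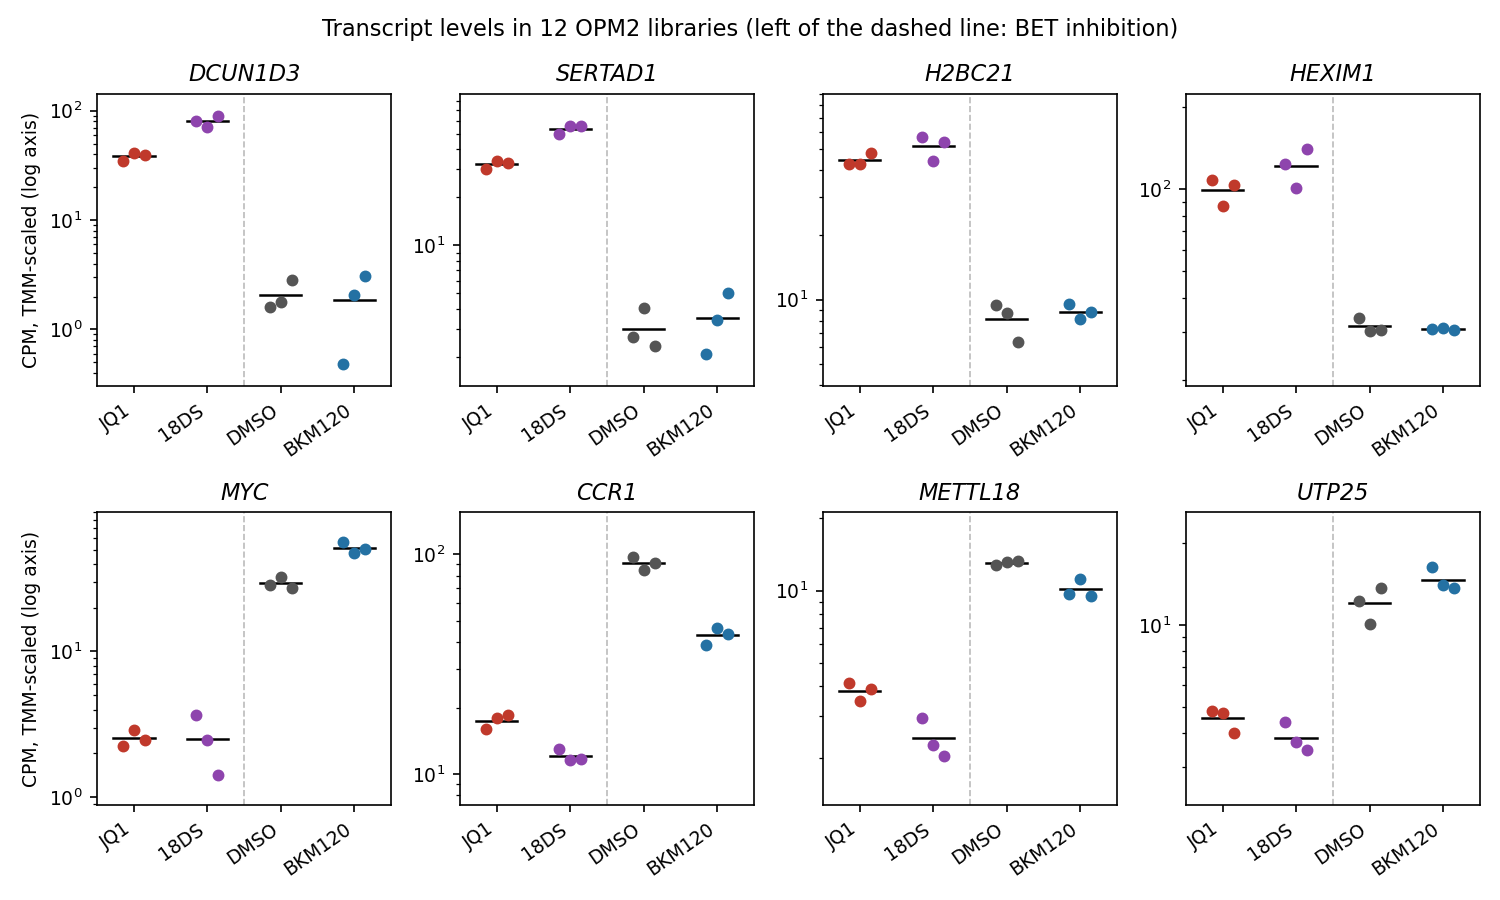
CPM (scaled by trimmed mean of M-values, log axis) of 8 genes in each of 12 libraries; points are libraries, bars are means of 3, and the dashed line parts the JQ1 and 18DS libraries from the DMSO and BKM120 libraries. For MYC the libraries with BET inhibition lie between 1.42 and 3.66 CPM and the others between 27.2 and 56.5 CPM. In none of the 8 genes do the 6 and the 6 libraries overlap. The genes besides MYC and HEXIM1 were picked among genes without overlap.

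DCUN1D3, which encodes a regulator of cullin neddylation, had the largest rise among non-overlapping genes that have a symbol and average at least 5 CPM. It had 34.4, 55.9 and 89.5 CPM (lowest, median and highest of 6) with BET inhibition, against 0.483, 1.92 and 3.05 CPM without it (log2 difference 4.88, SE 0.21, edgeR adjusted p = 4.86e-11). Its transcripts overlap those of ERI2 and LYRM1, so some of its reads cannot be assigned with certainty. SERTAD1, a transcriptional co-regulator of the E2F and cell cycle machinery, had 30.1, 41.7 and 55.7 CPM with BET inhibition, against 2.09, 3.02 and 5.03 CPM without it. DCUN1D3 and SERTAD1 were picked among genes whose groups did not overlap, so that separation is not a separate result. The log2 difference of SERTAD1 was 3.71 (SE 0.14, edgeR adjusted p = 1.85e-22).

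The other largest rises were in histone genes and in a few regulators. They included ZNF703 (log2 difference 2.12), ENC1 (1.97), RGS2, a brake on G protein signalling (1.83), ZCCHC24 (2.05), and RNVU1-24, a variant U1 small nuclear RNA gene (2.38). U1 genes and histone genes are families of near-identical copies, so their counts may be shared between members. IER5, an immediate early gene that acts on heat shock factor, rose with a log2 difference of 1.7 (SE 0.08, edgeR adjusted p = 9.97e-14).

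Among genes with a symbol, at least 5 CPM on average and no overlap between the groups, the largest fall after that of MYC was in CCR1, the receptor for the chemokine CCL3, which is expressed by myeloma cells. CCR1 had 11.6, 14.5 and 18.6 CPM (lowest, median and highest of 6) with BET inhibition, against 38.8, 65.7 and 97.5 CPM without it. The DMSO libraries lay above the BKM120 libraries. The log2 difference of CCR1 was -2.13 (SE 0.09, edgeR adjusted p = 3.3e-20).

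METTL18, a protein histidine methyltransferase gene, had 2.05, 3.21 and 4.13 CPM with BET inhibition and 9.52, 12 and 13.3 CPM without it (log2 difference -1.89, SE 0.16, edgeR adjusted p = 7.74e-12). UTP25, which encodes a factor of the small ribosomal subunit processome, had 3.47, 4.19 and 4.82 CPM with BET inhibition and 10.1, 13.7 and 16.3 CPM without it (log2 difference -1.67, SE 0.15). Both were picked among genes without overlap, so its absence is not a separate result. Other large falls were those of CYTIP, a binder of cytohesin in lymphoid cells (-1.74), ARID5B, a chromatin regulator (-1.65), ALKBH4 (-1.61), TFAP4, a transcription factor that MYC activates (-1.54), ZNF507 (-1.51), KLHL9 (-1.48) and BMF, a pro-apoptotic BCL2 family gene (-1.38).

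The promoters of 3 genes with large rises and a pair with large falls are shown for a core promoter motif, TATAAA, that a larger share of the genes that rose held. They were chosen after their values were seen, and not every gene that rose holds it. Each is the 250 bases before the annotated start of the gene, 5' to 3' on the gene's strand, from RefSeq on GRCh38.p14, and capitals mark TATAAA or its reverse complement.
HEXIM1 (rose; chr17:45148225-45148474, + strand): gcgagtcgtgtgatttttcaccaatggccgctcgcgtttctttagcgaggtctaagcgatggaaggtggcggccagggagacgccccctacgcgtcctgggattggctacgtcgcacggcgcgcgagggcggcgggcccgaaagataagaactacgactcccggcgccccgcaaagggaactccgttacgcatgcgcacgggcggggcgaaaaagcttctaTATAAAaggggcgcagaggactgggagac
H2BC21 (rose; chr1:149886683-149886932, - strand): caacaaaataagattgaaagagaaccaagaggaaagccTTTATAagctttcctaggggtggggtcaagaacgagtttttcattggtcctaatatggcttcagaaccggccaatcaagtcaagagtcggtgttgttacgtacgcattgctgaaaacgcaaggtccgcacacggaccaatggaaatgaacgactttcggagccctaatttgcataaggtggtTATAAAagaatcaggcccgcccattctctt
SERTAD1 (rose; chr19:40425993-40426242, - strand): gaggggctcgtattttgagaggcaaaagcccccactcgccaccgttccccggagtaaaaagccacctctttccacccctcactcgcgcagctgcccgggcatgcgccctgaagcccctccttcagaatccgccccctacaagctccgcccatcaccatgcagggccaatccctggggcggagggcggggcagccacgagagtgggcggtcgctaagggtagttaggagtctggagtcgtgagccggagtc
CCR1 (fell; chr3:46208314-46208563, - strand): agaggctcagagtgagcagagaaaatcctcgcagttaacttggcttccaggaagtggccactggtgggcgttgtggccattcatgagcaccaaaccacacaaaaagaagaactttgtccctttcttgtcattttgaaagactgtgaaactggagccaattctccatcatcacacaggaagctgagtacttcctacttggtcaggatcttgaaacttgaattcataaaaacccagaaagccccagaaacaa
UTP25 (fell; chr1:209827722-209827971, + strand): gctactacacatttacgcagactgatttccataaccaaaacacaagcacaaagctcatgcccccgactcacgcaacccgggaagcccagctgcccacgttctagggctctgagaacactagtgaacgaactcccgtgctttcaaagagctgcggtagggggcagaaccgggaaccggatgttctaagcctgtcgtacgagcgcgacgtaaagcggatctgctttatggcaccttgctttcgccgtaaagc

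The HEXIM1 window holds TATAAA beginning 29 bases before the start, and the H2BC21 window holds it 30 bases before the start, with a second copy on the other strand 212 bases before it. The SERTAD1, CCR1 and UTP25 windows hold neither TATAAA nor CACGTG, the E-box that MYC and MAX bind, nor do the same windows of DCUN1D3, which had the largest rise named, and METTL18. Over sets of genes both motifs were searched on both strands in the whole RefSeq window of 300 bases, which ends 50 bases after the start, and they share no overlap. Among protein-coding genes with a window (81.6% of those tested), 9.76% of genes that rose and 4.96% of genes that fell held TATAAA, against 5.01% of all tested genes. For CACGTG the order was the opposite, with 8.62% of genes that rose, 14.4% of genes that fell and 10.6% of all tested genes. Over all 27305 windows the shares were 12% for TATAAA and 7.43% for CACGTG. A match describes the letters of the window and is not a bound site.

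Genes that rose or fell had fewer annotated exons than tested genes as a whole. Among protein-coding genes, 4.92% of those that rose and 2.72% of those that fell had 1 exon, against 1.89% of all tested genes. The median number of exons was 8 in both and 10 over all tested genes. The median genomic span was 26162 bp in genes that rose and 29471 bp in genes that fell, against 31295 bp over all tested genes. These are descriptions with no test.

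The BET and P-TEFb machinery itself moved in both directions. Of 38 tested genes of P-TEFb, BET proteins and transcription elongation, 7 rose and 7 fell (18.4% each). Over all tested genes 7.12% rose and 9.92% fell. The list's median log2 difference was 0.05, against 0.004 over all tested genes. Without BKM120 replicate 1 only 4 fell: EAF2, NSD3 and NELFCD lost their calls, and EAF2 and NSD3 did so under 10 and 17 of the settings tried. BRD2, a BET protein gene, had 202, 222 and 256 CPM (lowest, median and highest of 6) with BET inhibition, against 101, 115 and 123 CPM without it. The groups did not overlap, and the log2 difference was 0.99 (SE 0.06, edgeR adjusted p = 4.09e-16). BRD3, another BET protein gene, did not pass the test (log2 difference 0.12, edgeR adjusted p = 0.512), nor did CDK9 (0.38, edgeR adjusted p = 0.362) or its partner CCNT1 (0.15, edgeR adjusted p = 0.319).

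The 2 other proteins of the 7SK particle went opposite ways at the RNA level. MEPCE, which caps 7SK RNA, rose by 0.55 (log2; edgeR adjusted p = 4.32e-05), and LARP7, which holds the RNA, fell by 0.50 (edgeR adjusted p = 8.52e-07). Both had no overlap between the 6 and the 6 libraries. POLR2A, the largest subunit of RNA polymerase II, rose by 0.89 (edgeR adjusted p = 2.1e-14). CTR9, a subunit of the PAF1 elongation complex, rose by 0.30, and MLLT3, of the super elongation complex, fell by 0.41. MEPCE (0.26, edgeR adjusted p = 0.152), CTR9 (0.19, edgeR adjusted p = 0.182) and MLLT3 (-0.31, edgeR adjusted p = 0.126) were not called in JQ1 against DMSO. They were called in 18DS against BKM120, which also holds any difference in PI3K inhibition. LARP7 and POLR2A were called in both contrasts.

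Histone genes rose and none fell. Of 25 tested histone genes 16 (64.0%) rose, against 7.12% of all tested genes. The 16 rose by 0.23 to 2.99 on the log2 scale, and the list's median was 0.576. H2BC21, whose promoter is printed above, had 42.8, 46.0 and 56.7 CPM (lowest, median and highest of 6) with BET inhibition, against 6.33, 8.75 and 9.50 CPM without it. The log2 difference of H2BC21 was 2.5 (SE 0.10, edgeR adjusted p = 4.19e-21), and it was picked among genes without overlap. H3C4 (2.99), H2AC6 (2.05), H2AC11 (1.88) and H2BC12 (1.40) also rose. Of the 16 that rose, 10 had no overlap between the groups, against 351 of the 939 that rose over all tested genes. Without the library 18DS replicate 2, 16 rose and 1 fell. Replication-dependent histone RNAs mostly lack a poly(A) tail, so a 3' method that starts from the tail sees only part of them. Of 71 histone genes on the list, 38 could be matched to the files. The list of known BET inhibitor markers, which shares members with this one, had 8 of 10 genes higher and 0 lower (median 1.594). It was written from what BET inhibitors are known to do and with earlier results of these data known.

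In the MYC and MAX network 5 of 13 tested genes fell (38.5%) and 1 rose (7.69%), against 9.92% and 7.12% over all tested genes. Besides MYC and TFAP4, the MYC antagonists MXI1 (log2 difference -0.56), MNT (-0.57) and MGA (-0.49) fell, while MXD1, another antagonist, rose by 0.74. MXI1 was called in 18DS against BKM120 (-0.9, edgeR adjusted p = 1.65e-05) and not in JQ1 against DMSO (-0.18, edgeR adjusted p = 0.447). For MXI1, BET inhibition cannot be told apart from a difference in PI3K inhibition between 18DS and BKM120. MAX, the partner of both MYC and its antagonists, did not pass the test (-0.04, edgeR adjusted p = 0.73). At 2 h, genes known to be activated by MYC were divided: 13 of 64 fell (20.3%) and 7 rose (10.9%). Their median of -0.001 turned sign with the scaling of the libraries. The members that fell went down by 0.17 to 0.95 on the log2 scale, with the smallest adjusted p for RRS1 (-0.95), WDR43 (-0.57) and DKC1 (-0.28). The 7 that rose did so by 0.16 to 0.20, and 3 rose without DMSO replicate 2. Without the PI3K term 7 fell and 0 rose.

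Ribosome biogenesis factors fell and none rose. Of 125 tested, 44 (35.2%) fell, against 9.92% of all tested genes. The 44 fell by 0.17 to 1.67 on the log2 scale. A difference below 0 was seen in 102 of the 125, against 6501 of 13180 tested genes. The median was -0.159. With upper-quartile scaling 39 fell and 1 rose. RRS1, a factor of the large subunit, had 23.4, 31.1 and 40.9 CPM with BET inhibition and 47.8, 62.1 and 83.5 CPM without it. WDR43, of the small subunit processome, had 42.6, 57.3 and 60.8 CPM with BET inhibition and 71.6, 80.9 and 96.2 CPM without it. Neither gene's groups overlapped. Of the 44, 32 were called lower in JQ1 against DMSO and 9 in 18DS against BKM120, and none had a called interaction. Of all 125, 35 and 9 were called lower in these contrasts, against 4.90% and 4.88% of all tested genes. Without the PI3K term 23 fell. Of 79 cytosolic ribosomal protein genes 3 rose, RPS26 (0.19), RPS20 (0.14) and RPLP1 (0.13), and 0 fell. That is 3.8%, below the 7.12% that rose over all tested genes. By sign, however, 76 of the 79 were above 0 and 3 below, against 6679 above and 6501 below over all tested genes. The median was 0.069, or 0.036 with library totals only, and with upper-quartile scaling 5 rose. RPS20 and RPLP1 lost their calls with library totals only, and also without JQ1 replicate 2 or BKM120 replicate 1. None of RPS26, RPS20 and RPLP1 was called in either contrast, and without the PI3K term 0 of the 79 rose. Another identifier had counts within 5% of those of RPS26, so the reads of RPS26 cannot be assigned with certainty.

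**Figure D2:**
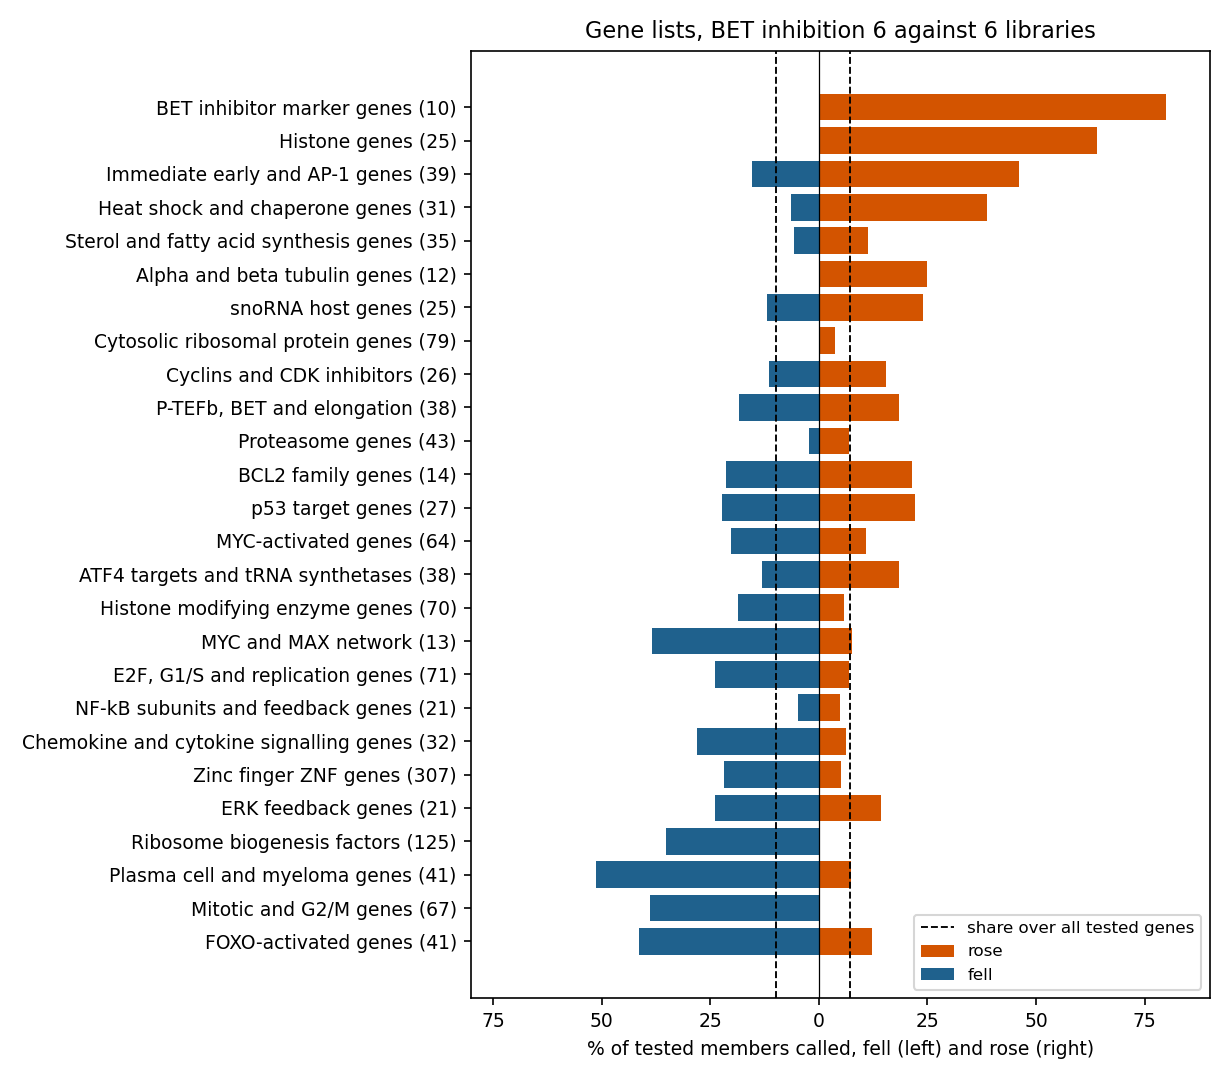
Share of tested members that fell (left, blue) and rose (right, orange) with BET inhibition in 26 gene lists, with the number tested in brackets, ordered by median log2 difference; dashed lines are the shares over all tested genes, 9.92% fell and 7.12% rose. Histone genes lie wholly to the right and ribosome biogenesis and mitotic genes wholly to the left.

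Among plasma cell and myeloma genes falls outnumbered rises. Of 41 tested 21 fell (51.2%) and 3 rose (7.32%), against 9.92% and 7.12% over all tested genes. The median was -0.189. PIM2, a survival kinase gene highly expressed in myeloma, had 1933, 2358 and 3175 CPM with BET inhibition and 2765, 3652 and 4405 CPM without it, and the groups overlapped. Within the additive model it fell with a log2 difference of -0.55 (SE 0.05, edgeR adjusted p = 1.49e-11), and PIM2 also had a PI3K term of 0.56. TNFRSF17, the B cell maturation antigen, had 212, 223 and 230 CPM with BET inhibition and 275, 331 and 372 CPM without it. IRF4, the plasma cell master regulator, had 188, 195 and 199.8 CPM with BET inhibition and 225, 268 and 317 CPM without it. TNFRSF17 and IRF4 had no overlap and fell by 0.56 and 0.46. FGFR3, the receptor gene that OPM2 overexpresses through a translocation, fell by 0.44 (edgeR adjusted p = 2.34e-08). NSD2, the histone methyltransferase gene at the same translocation, rose by 0.33 (edgeR adjusted p = 2.04e-06), so these genes went in opposite directions.

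Immediate early and AP-1 genes rose in 18 of 39 (46.2%) and fell in 6 (15.4%), with a median of 0.352. Over all tested genes 7.12% rose and 9.92% fell. JUN, an AP-1 subunit, had 50.4, 64.4 and 79.2 CPM with BET inhibition and 25.8, 33.4 and 41.2 CPM without it, with no overlap (log2 difference 0.95, SE 0.07, edgeR adjusted p = 1.14e-13). Heat shock and chaperone genes rose in 12 of 31 (38.7%) and fell in 2 (6.45%), with a median of 0.128. DNAJB1, a co-chaperone of HSP70, had 119, 124 and 149 CPM with BET inhibition and 40.4, 58.3 and 79.1 CPM without it. Its groups did not overlap (log2 difference 1.18, SE 0.08, edgeR adjusted p = 2.12e-11). HSPA1B, an inducible HSP70 gene with a near-identical copy, rose by 1.35 and HSPA8, the constitutive HSP70 gene, by 0.65.

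Among mitotic and E2F genes more fell than rose, and most members did not pass the test. Of 67 mitotic and G2/M genes 26 (38.8%) fell by 0.18 to 0.74 on the log2 scale and 0 rose (median -0.192); 1 rose with upper-quartile scaling and without JQ1 replicate 2, 18DS replicate 2 or DMSO replicate 3. AURKA, a mitotic kinase, had 45.3, 54.3 and 67.3 CPM with BET inhibition and 83.2, 92.9 and 102 CPM without it. The groups did not overlap (log2 difference -0.74, SE 0.06, edgeR adjusted p = 2.26e-11). CENPF and CCNA2 fell by 0.39 and 0.41. Of 71 genes of E2F, G1/S and replication 17 (23.9%) fell, by 0.17 to 1.33, and 5 (7.04%) rose (median -0.063). Over all tested genes 9.92% fell and 7.12% rose. Without the PI3K term 10 fell and 3 rose, and 3 also rose without JQ1 replicate 1, JQ1 replicate 3 or BKM120 replicate 1. E2F2 fell by 0.75 (edgeR adjusted p = 3.33e-11), whereas the nucleotide reductase subunit RRM2 rose by 0.45 and the histone chaperone ASF1B by 0.54. Cyclins and CDK inhibitors rose in 4 of 26 (15.4%) and fell in 3 (11.5%).

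Smaller groups held a few clear members. Over all tested genes 7.12% rose and 9.92% fell. INSIG1, the sterol sensor that retains SREBP in the endoplasmic reticulum, had 198, 271 and 347 CPM with BET inhibition and 72.9, 111 and 146 CPM without it (log2 difference 1.31, SE 0.06, edgeR adjusted p = 1.2e-20). The other sterol and fatty acid genes mostly did not follow, since 4 of 35 rose (11.4%) and 2 fell (5.71%). IDI1 (0.72) and FASN (0.35) were among the rises. In the BCL2 family 3 of 14 rose and 3 fell (21.4% each). In JQ1 against DMSO 3 rose and 1 fell, and in 18DS against BKM120 0 rose and 3 fell. BMF fell most (JQ1 minus DMSO -1.34, 18DS minus BKM120 -1.41). The survival gene MCL1 rose by 0.24 (edgeR adjusted p = 0.00129). MCL1 was called in JQ1 against DMSO (0.33, edgeR adjusted p = 0.000865) and not in 18DS against BKM120 (0.15, edgeR adjusted p = 0.284). Of 27 p53 target genes 6 rose and 6 fell (22.2% each), and 3 rose without 18DS replicate 1. Without the PI3K term 2 rose and 3 fell. All 6 that fell were called lower in 18DS against BKM120, and 3 of them in JQ1 against DMSO. For falls called in 18DS against BKM120 alone, BET inhibition cannot be told apart from a difference in PI3K inhibition between 18DS and BKM120. SESN2 was higher (1.59), and MDM2 (-0.82) and AEN (-1.04) were lower. ERK feedback genes rose in 3 of 21 (14.3%) and fell in 5 (23.8%). IER3 was higher by 2.26 and the phosphatase gene DUSP4 lower by 0.86.

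Chemokine and cytokine signalling genes fell in 9 of 32 (28.1%) and rose in 2 (6.25%), against 9.92% and 7.12% over all tested genes. Besides CCR1, the interferon receptor gene IFNAR2 fell by 0.60 and RGS2 rose. Histone modifying enzymes fell in 13 of 70 (18.6%) and rose in 4 (5.71%). Those with the smallest adjusted p were the methyltransferase genes SETDB1 (-0.74), KMT5B (-0.70) and KMT2E (-0.54). Without 18DS replicate 3, 2 genes of the list rose. Zinc finger ZNF genes fell in 67 of 307 and rose in 16 (27.0% called, against 17% over all tested genes). Their median was -0.131, and 9 rose without JQ1 replicate 3 and 10 without DMSO replicate 3. ZNF507 had the largest fall named in this family and ZNF703 the largest rise. Hosts of small nucleolar RNAs rose in 6 of 25 and fell in 3, SNHG12 by 0.66 and SNHG1 by 0.43. Tubulin genes rose in 3 of 12, TUBB4B by 0.71.

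With TMM scaling, a smaller share of the NF-kB and proteasome lists was called than of all tested genes. Of 21 NF-kB subunit and feedback genes 1 rose and 1 fell (9.52% called), and of 43 proteasome genes 3 rose and 1, PSMD7, fell (-0.30; 9.3% called), against 17% over all tested genes. Leaving out single libraries moved these counts by 1 or 2 genes. With library totals only, 4 NF-kB genes fell, while 1 proteasome gene rose and 3 fell. The NF-kB count thus depended on the scaling. Targets of ATF4 with the tRNA synthetases moved in both directions, since 7 of 38 rose (18.4%) and 5 fell (13.2%), ATF5 by 0.50 among the rises.

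The comparison rests on 2 contrasts that share no library, so each could be read by itself. JQ1 against DMSO called 1145 genes (8.69% of those tested), 499 higher (3.79%) and 646 lower (4.90%). 18DS against BKM120 called 1090 genes (8.27%), 447 higher (3.39%) and 643 lower (4.88%). Of the 1145 genes 495 (43.2%) were also called in the same direction in 18DS against BKM120, which is 45.4% of its 1090, and none was called in the opposite direction. The sign was shared by 94.8% of the genes called in JQ1 against DMSO and by 66.9% of all tested genes. Leaving out JQ1 replicate 3 lowered the first count to 698, and leaving out 18DS replicate 3 or BKM120 replicate 1 lowered the second to 649 or 644.

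**Figure D3:**
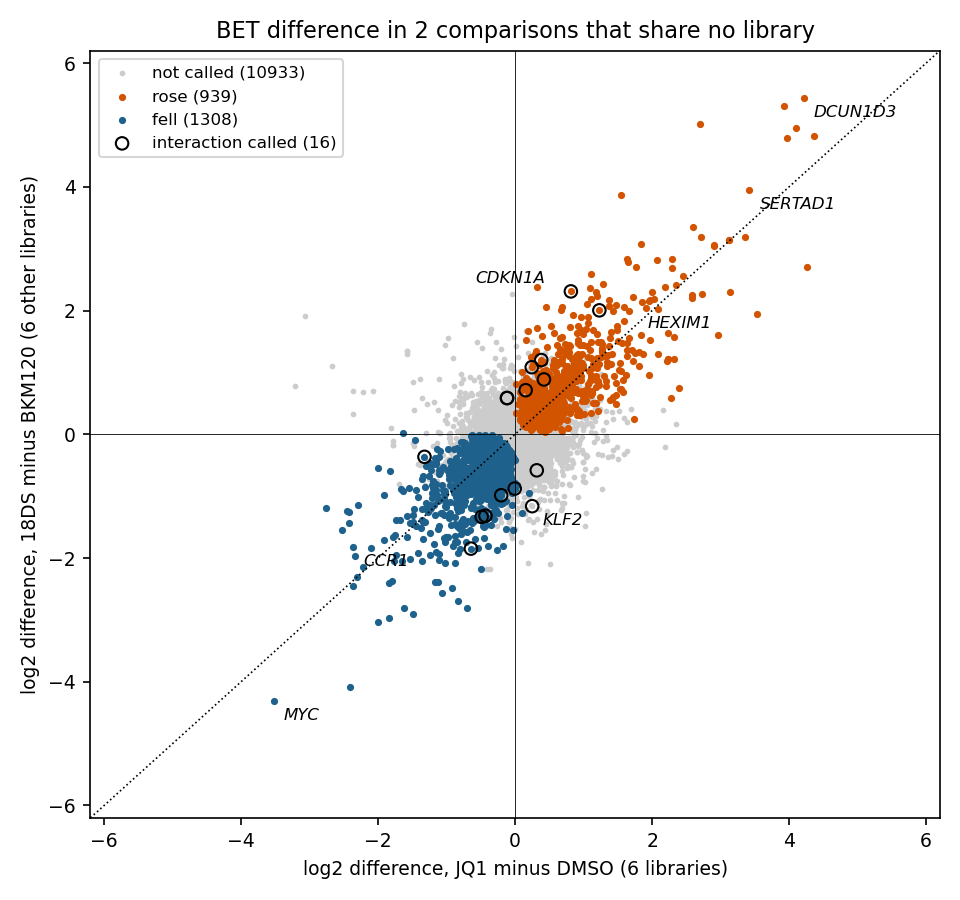
Log2 difference of JQ1 minus DMSO (horizontal) against 18DS minus BKM120 (vertical) for 13180 tested genes; orange genes rose and blue genes fell in the 6 against 6 comparison, open circles are the 16 genes with a called interaction, the dotted line is equality, and 2 genes lie outside the axes. Most called genes lie in the lower left and the upper right.

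Putting the 12 libraries together called genes that neither 6-library contrast called. Of the 2247 genes, 773 passed in neither, 352 higher and 421 lower. Their median difference was 0.367 on the log2 scale in size, against 0.72 for the 495 called in both. Those with the smallest adjusted p included HS6ST1, a heparan sulfate sulfotransferase gene (0.84, edgeR adjusted p = 0.00175), USP3, a histone deubiquitinase gene (-0.41, edgeR adjusted p = 0.00189), and SKP1, a subunit of SCF ubiquitin ligases (0.24, edgeR adjusted p = 0.00193). SKP1 had 151, 164 and 185 CPM with BET inhibition and 133, 139.7 and 149 CPM without it, a small difference without overlap. The reverse also occurred, since 154 genes called in JQ1 against DMSO and 112 called in 18DS against BKM120 were not called with 12 libraries.

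Where the BET difference was not the same with and without PI3K inhibition, the additive model gives only an average. The interaction was called in 16 of 13180 genes (0.121%), 9 higher and 7 lower, and 1015 genes had an unadjusted p under 0.05. The count depended on single libraries. It was 8 without JQ1 replicate 1, 6 without JQ1 replicate 2, 28 without 18DS replicate 1, 28 without 18DS replicate 2 and 8 without 18DS replicate 3. Leaving out DMSO replicate 2 gave 7, DMSO replicate 3 gave 3, BKM120 replicate 1 gave 5 and BKM120 replicate 3 also gave 5. The calls of RBMS1, CCDC117 and ST3GAL6 held under each of the 21 other settings tried.

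RBMS1, an RNA-binding protein gene, had 36.1, 36 and 38.5 CPM with JQ1 and 29.6, 33.4 and 35.8 CPM with 18DS, against 50.8, 49.6 and 49.5 CPM with DMSO and 80.2, 83.0 and 83.0 CPM with BKM120. Its BKM120 libraries stood highest, and the BET-inhibited libraries lay below both other groups. The BET difference was lower by 0.88 on the log2 scale with PI3K inhibition than without it (edgeR adjusted p = 0.00188). ST3GAL6, a sialyltransferase gene, averaged 25.2 ± 0.394 CPM with JQ1, 36.2 ± 0.722 with 18DS, 35.4 ± 1.28 with DMSO and 91.5 ± 2.93 with BKM120 (SD, n = 3 each). Here the 18DS libraries were near the DMSO level and the BKM120 libraries far above it. CCDC117 averaged 46.0 ± 1.96 CPM with JQ1, 42.2 ± 5.66 with 18DS, 46.4 ± 0.390 with DMSO and 77.9 ± 0.873 with BKM120 (SD, n = 3 each), with a log2 difference of -0.88 for 18DS minus BKM120 and -0.01 for JQ1 minus DMSO. Its fall of 0.46 with 12 libraries (edgeR adjusted p = 0.0432) was lost without 18DS replicate 1 or 3 or any 1 of the BKM120 libraries (edgeR adjusted p = 0.0736 to 0.0906).

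In the other direction, CDKN1A, the CDK inhibitor p21, averaged 15.9 ± 1.5 CPM with JQ1, 16.6 ± 1.49 with 18DS, 8.95 ± 1.45 with DMSO and 3.38 ± 0.876 with BKM120 (SD, n = 3 each). The BET-inhibited groups were alike in level, and BKM120 lay below DMSO. The difference between the BET differences was 1.5 on the log2 scale (edgeR adjusted p = 0.0145). JUNB (0.85, edgeR adjusted p = 0.0145), MIDN (0.78, edgeR adjusted p = 0.0163) and HSPA8 (0.47, edgeR adjusted p = 0.026) also had a mean in DMSO below those in JQ1 and 18DS and the lowest mean in BKM120. The CDKN1A call was lost without DMSO replicate 3 (adjusted p = 0.0552, edgeR) or BKM120 replicate 1 (adjusted p = 0.0787, edgeR). With 1 library left out at a time, the interaction calls of JUNB and MIDN were lost in 5 of 12 cases each, with edgeR adjusted p up to 0.073 and 0.0693, and that of HSPA8 in 7, with edgeR adjusted p up to 0.142.

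**Figure D4:**
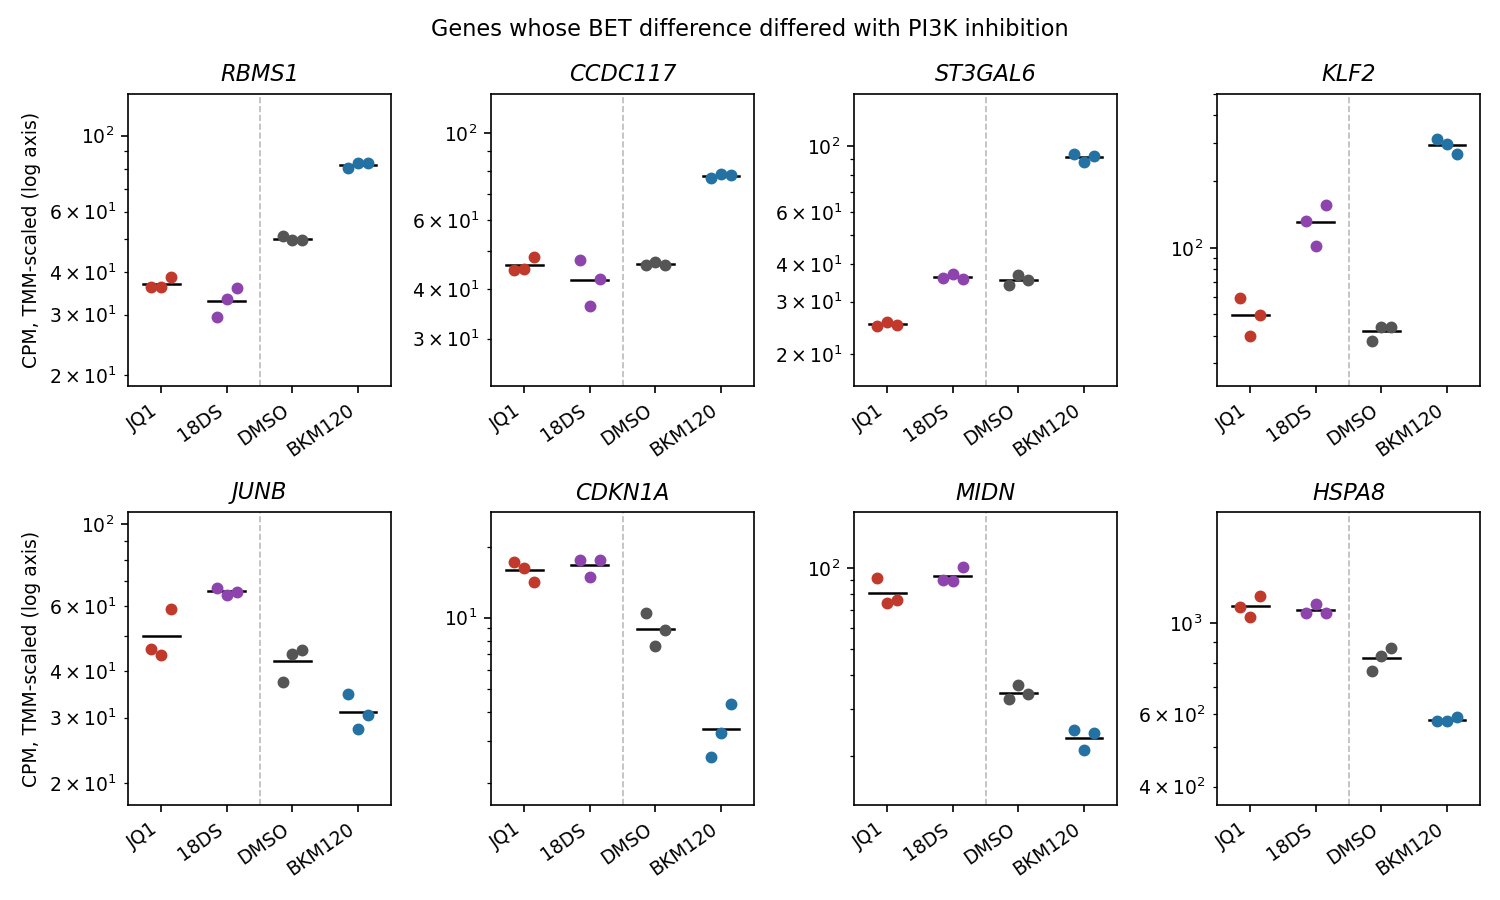
CPM (scaled by trimmed mean of M-values, log axis) of 8 genes with a called interaction in each of 12 libraries; points are libraries, bars are means of 3, and the dashed line parts the JQ1 and 18DS libraries from the DMSO and BKM120 libraries. The BKM120 libraries are the highest group for RBMS1, CCDC117, ST3GAL6 and KLF2 and the lowest for JUNB, CDKN1A, MIDN and HSPA8.

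Genes activated by FOXO, the transcription factors that PI3K signalling holds out of the nucleus, showed a wide gap between the contrasts. Of 41 tested 17 fell (41.5%) and 5 rose (12.2%) in the 6 against 6 comparison (median -0.196), and 9 fell without the PI3K term. Over all tested genes 9.92% fell and 7.12% rose. In 18DS against BKM120 19 fell and 4 rose (median -0.426), where 4.88% of all tested genes fell and 3.39% rose. In JQ1 against DMSO 4 fell and 6 rose (median 0.042), where 4.90% of all tested genes fell and 3.79% rose. Of the 17 that fell, 12 had a PI3K term called higher, against 106 of the 1308 that fell over all genes. Both terms draw on the BKM120 libraries. A gene high in BKM120 alone gets a lower BET term and a higher PI3K term from the fit itself, so these counts are not separate evidence. A called interaction was found for CDKN1A and KLF2 of this list, so the difference between the contrasts was otherwise not past its test gene by gene.

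KLF2, a transcription factor gene that FOXO1 activates in lymphocytes, averaged 49.5 ± 9.67 CPM with JQ1, 130.2 ± 27.5 with 18DS, 41.9 ± 3.62 with DMSO and 292 ± 23.9 with BKM120 (SD, n = 3 each). The 18DS libraries lay between the DMSO and the BKM120 libraries. KLF2 did not pass the 6 against 6 test (log2 difference -0.57, edgeR adjusted p = 0.194), and its interaction was -1.41 (edgeR adjusted p = 0.0321), a call lost in 8 of 12 cases when 1 library was left out (edgeR adjusted p up to 0.118). TP53INP1 averaged 7.02 ± 1.38 CPM with JQ1, 14.1 ± 2.77 with 18DS, 8.90 ± 1.31 with DMSO and 39.2 ± 3.10 with BKM120 (SD, n = 3 each). HBP1 (JQ1 minus DMSO -0.25, 18DS minus BKM120 -1.27), CCNG2 (-0.27 and -1.87) and BBC3, which encodes PUMA (0.10 and -1.27), also had their larger difference against BKM120. All 4 were called lower with 12 libraries, and none of the 4 was called in JQ1 against DMSO. Without the PI3K term none of the 4 was called, and for these genes BET inhibition cannot be told apart from a difference in PI3K inhibition between 18DS and BKM120.

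TRIB1 and CDKN2D, also of the FOXO list, had like values in both contrasts. TRIB1 fell by 1.12 on the log2 scale (JQ1 minus DMSO -1.21, 18DS minus BKM120 -1.03), and CDKN2D rose by 0.81 (0.83 and 0.80). FBXO32 fell by 2.44 (-2.37 and -2.46), from few counts, with 0.172, 0.536 and 1.42 CPM with BET inhibition and 1.33, 3.88 and 7.08 CPM without it. The list thus held both genes whose fall was shared by JQ1 and 18DS and genes whose fall was called in 18DS against BKM120 alone.

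**Figure D5:**
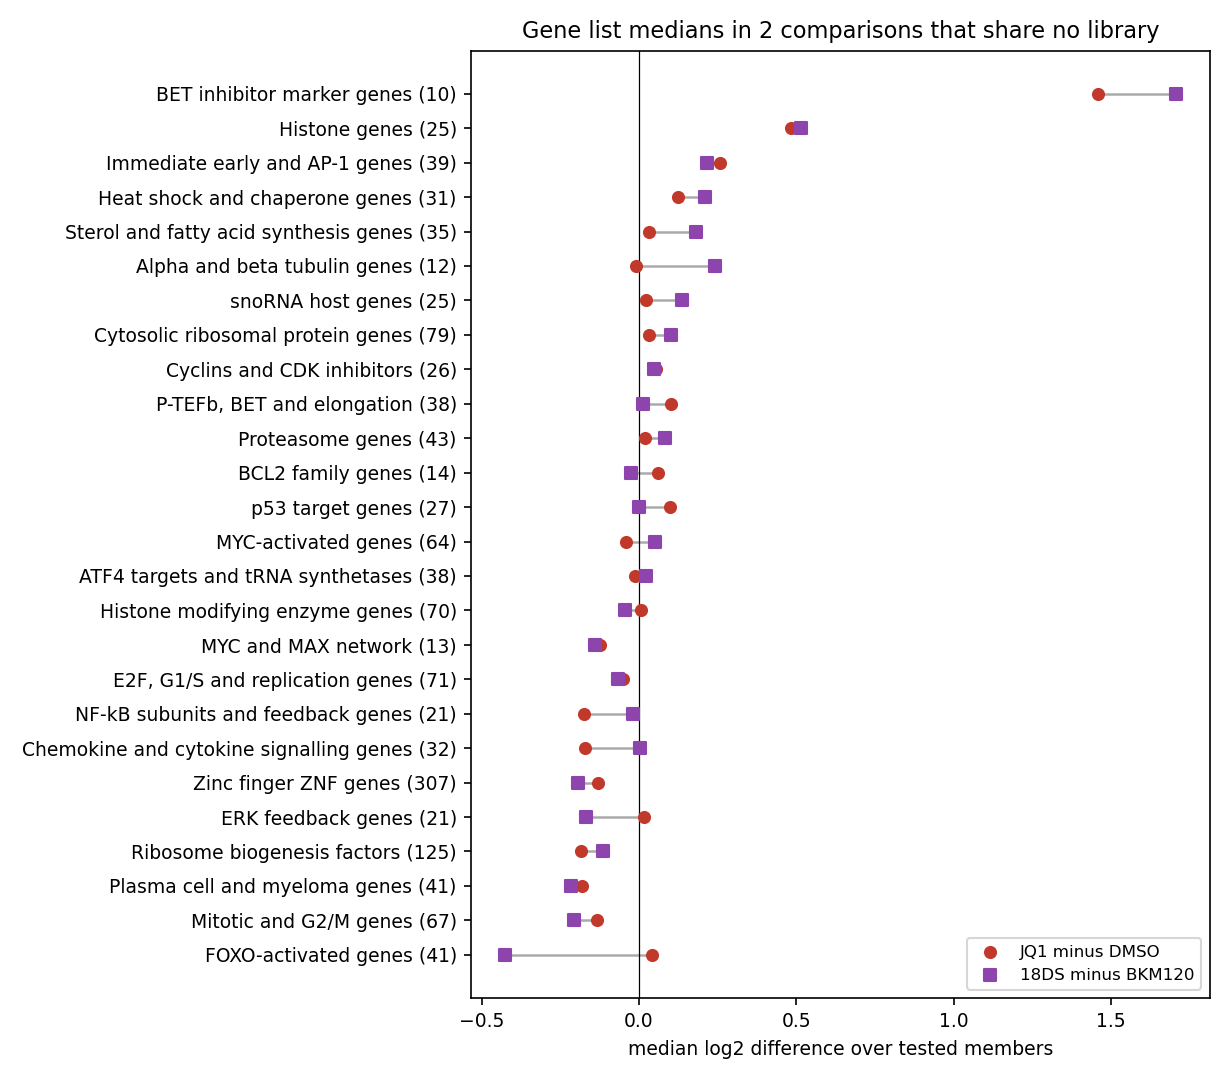
Median log2 difference over the tested members of 26 gene lists in JQ1 minus DMSO (red circles) and 18DS minus BKM120 (purple squares), in the order of the median over 12 libraries. The medians of histone genes lie close together (0.483 and 0.514), and those of FOXO-activated genes far apart (0.042 and -0.426).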

How the data were processed

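The values used are raw read counts per Ensembl gene, deposited by the authors as whole numbers, 1 column per library and not normalized. Per the submitters' processing notes, which give no roles or order, the build was hg19 and the tools were HISAT2 2.1.0, SAMtools 1.9, featureCounts (Subread), limma, cutadapt 1.7, FastQC 0.11.5 and bcl2fastq 2.17.1.14. The strand setting of the counting is not given in the sources used here. Of 63152 identifiers, 39560 had a symbol, and those without one held 9.12% of counts. The annotation at hand is of another build, GRCh38.p14; its coordinates are given for promoter windows alone, which were matched by symbol.

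The tests used edgeR 4.0.16 in R 4.3.3 (filterByExpr by group, minimum count 10 and total 15; TMM factors 0.9715 to 1.033; robust quasi-likelihood test; Benjamini-Hochberg adjustment over all genes, called under 0.05). DESeq2 1.42.0 and limma 3.58.1 were alternatives, and the data.table package (1.17.8), Python 3.11.15, pandas 2.3.3, numpy 2.4.6 and matplotlib 3.10.9 were also used. The common biological coefficient of variation was 0.0883 and the median standard error of the BET difference 0.122. Intervals are 95% confidence intervals. CPM use TMM-scaled library sizes. The scripts were tested on simulated data. Other scalings, filters, tools and models, a replicate block and leaving out each library were tried as alternatives.

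Named genes are MYC, HEXIM1, the 12 largest differences per direction among called genes with a symbol, at least 5 CPM on average and no overlap, and up to 3 members per list by adjusted p. To these were added 6 genes called with 12 libraries alone, 3 per direction with an interaction, and elongation genes. KLF2, CCNG2, TP53INP1, HBP1, BBC3, MXD1, MNT, MGA, MAX and NSD2 were chosen after their values were seen. A few genes of these sets are not reported here. The members and the 30 lists were chosen with earlier results of these data known, and 48 of 1209 list entries matched no identifier. Replicate numbers did not pair the libraries. Of the 109 named genes 33 overlap exons of another gene, and 46 tested genes had counts identical to another identifier.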

Additional observations from a re-analysis of the deposited data

Results flagged for a closer look

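For each of 109 genes the 6 libraries with and the 6 without BET inhibition were checked for a library far from the others, 218 sets in all, of which chance gives about 1 in 20. There were 3 such libraries. HEXIM1 had 33.6 CPM in DMSO replicate 1, and the next highest library without BET inhibition had 30.9 CPM. ZNF703 had 8.80 CPM in BKM120 replicate 3, with 4.51 CPM next. ZNF22 had 86.5 CPM in BKM120 replicate 1, the lowest of the 6 without BET inhibition, with 94.0 CPM next.

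The BET difference differed with PI3K inhibition, by the edgeR interaction test, in these named genes. It was higher with PI3K inhibition by 1.5 on the log2 scale for CDKN1A, 0.85 for JUNB, 0.78 for MIDN and 0.47 for HSPA8. It was different by -1.41 for KLF2, -0.88 for RBMS1, -0.87 for CCDC117 and -0.85 for ST3GAL6. The adjusted p was 0.0145 for CDKN1A, 0.0145 for JUNB, 0.0163 for MIDN and 0.026 for HSPA8. It was 0.0321 for KLF2, 0.00188 for RBMS1, 0.00188 for CCDC117 and 0.00209 for ST3GAL6. Of these 8, 3 kept their call under each of 21 other settings, and none changed sign.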

How the results depend on the processing

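The count of 2247 genes called (939 higher, 1308 lower) became 1455 (823 lower) without the PI3K term, 1145 (499 higher, 646 lower) in JQ1 against DMSO alone and 1090 (447 higher, 643 lower) in 18DS against BKM120 alone, fits that use fewer libraries or carry the PI3K difference in their spread. With each library left out it was 1871 to 2160 (809 to 933 higher, 1047 to 1248 lower); the log2 difference of MYC was then -4.06 to -3.772 and that of HEXIM1 1.759 to 1.88. With a replicate block 2158 genes were called, 904 higher and 1254 lower; the numbers do not pair the libraries (correlations of -0.115 to 0.0835), and 2 named genes, CCDC117 and NSD3, lost their call. The 16 interaction calls became 45 without a filter (27 higher, 18 lower), 10 without the robust option (5 higher), 14 lower with upper-quartile factors, and 3 to 28 with each library left out (0 to 19 higher, 3 to 16 lower); the cause was not tested. DESeq2 called 611 genes in JQ1 against DMSO (261 higher, 350 lower). With each library left out that contrast called 698 to 1220 (285 to 572 higher, 413 to 648 lower) and 18DS against BKM120 644 to 1147 (267 to 510 higher, 369 to 637 lower). In JQ1 against DMSO alone KLF2 was 0.2498 and BBC3 0.09631, the opposite sign to that with 12 libraries. Of 2672 other values of 107 named genes over 25 settings, 2549 kept direction and side of the threshold and 118 lost the call, 60 of them in fits of 6 libraries or without the PI3K term. With a median standard error of 0.122 at this depth, differences of that size, and larger ones too, could go uncalled in a typical gene. Counts were also simulated from a model fitted to these counts, without an interaction and with 200 of 13180 genes changed. There, 71.6% of 67 genes changed 1.5-fold were called in the right direction. For 67 genes changed 2-fold the share was 91%. The real comparison called 2247 genes, so its threshold on unadjusted p was not the same. These shares therefore describe the simulation and not these data.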
